A study of Mus musculus with 12 samples.

Results

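The 7 genes described here carry out antigen presentation on class II molecules of the major histocompatibility complex (MHC). They are H2-Aa, H2-Ab1, H2-Eb1, Cd74, Ciita, H2-DMa and H2-DMb1, and were picked by name from the 35275 genes of the deposited count table. All 7 passed the filter on low counts, which left 18344 genes for testing. Poly(A) RNA of the optic nerve was sequenced from mice of a neurofibromatosis type 1 (NF1) model. The groups were NF1 mice given carboplatin, a platinum drug that cross-links DNA (3 libraries), NF1 mice given selumetinib, an inhibitor of the MEK kinases (3 libraries), and NF1 mice given phosphate-buffered saline (PBS, 6 libraries). All groups carried the NF1 background, and no group without it was used. The sources used here do not give the Nf1 allele, the strain, the age, the sex, the dose or the schedule. Nothing in the labels states that replicate libraries are from different mice, so each p-value gauges variation among libraries that may be technical.

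Class II molecules are pairs of an alpha and a beta chain that carry peptides from the endocytic route to the cell surface, where CD4+ T cells read them. The invariant chain, the product of Cd74, fills the peptide groove during assembly, and the DM heterodimer, made of the products of H2-DMa and H2-DMb1, removes its last fragment and edits the peptides that are loaded. The transactivator CIITA is needed for transcription of these genes. It does not bind DNA itself but docks on factors held at a conserved promoter module. In the nervous system class II is found mainly on dendritic cells, on macrophages of the meninges and vessel walls, on B cells and on activated microglia.

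Total counts ran from 21793052 to 33375754 per library. The 7 genes together took 0.00629%, 0.00459% and 0.00522% of all counts in carboplatin 1 to 3. They took 0.0153%, 0.0167% and 0.0483% in selumetinib 1 to 3, and 0.0328% to 0.0490% in the 6 PBS libraries. The labels call the cells nerve cells, and the libraries held abundant markers of nerve glia. The 12 mature oligodendrocyte markers summed to 52256 to 96631 CPM in carboplatin, 19488 to 66689 CPM in selumetinib and 29481 to 70659 CPM in PBS. CPM are read counts put on one scale across libraries with TMM factors. Selumetinib 1, selumetinib 2 and PBS 1 stood apart, with the lowest oligodendrocyte sums of all 12 libraries, at 28314, 19488 and 29481 CPM. Markers of other tissues also divided the libraries. The 12 skeletal muscle markers summed to 152 to 2572 CPM in carboplatin, 11.5 to 22.5 CPM in selumetinib, 273 to 91702 CPM in PBS 1 to 3, with the highest value in PBS 1, and 13.2 to 14.4 CPM in PBS 4 to 6. The 10 photoreceptor markers summed to 85.9 to 1736 CPM in carboplatin, 13.1 to 15.5 CPM in selumetinib, 27.7 to 159 CPM in PBS 1 to 3 and 14.5 to 16.5 CPM in PBS 4 to 6. In carboplatin against PBS 1 photoreceptor gene was called, Rom1, which was higher (log2 1.62 ± 0.27, edgeR adjusted p 0.0144), and all 10 were higher at an unadjusted p under 0.05. Carboplatin and PBS 1 to 3 thus lay on one side, and selumetinib and PBS 4 to 6 on the other. The labels used here name no processing sets, and the part of these tissues in the class II values was not tested. Within PBS, H2-Aa, H2-Ab1 and H2-Eb1 summed to 157 to 309 CPM in PBS 1 to 3 and 156 to 225 CPM in PBS 4 to 6.

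The promoter module that CIITA depends on is shown for the members with a RefSeq promoter sequence and for 3 related genes, because it is the feature that the class II genes share in their DNA. The windows covered 250 bases before to 50 bases after each annotated start, on build GRCm38.p6. Of the 7 members, 4 were found in this table, with 5 windows. The sequences run from 3 bases before GNAAC to the end of TGATTGG, and capitals mark these motifs. GNAAC stands for the core of the X box and TGATTGG for the inverted CCAAT box, or Y box. The motifs and their spacing were chosen after these sequences had been looked at.
H2-Aa: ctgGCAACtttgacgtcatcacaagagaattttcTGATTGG
H2-Eb1: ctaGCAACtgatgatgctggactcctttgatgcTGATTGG
H2-DMb1: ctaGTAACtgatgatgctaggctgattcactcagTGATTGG
H2-Ob: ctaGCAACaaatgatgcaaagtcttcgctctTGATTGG
H2-Oa: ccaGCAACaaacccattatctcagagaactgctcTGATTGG
H2-Eb2: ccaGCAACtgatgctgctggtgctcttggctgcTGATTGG
The H2-Aa stretch lies on the minus strand at chr17:34287867-34287907, and that of H2-Eb1 on the plus strand at chr17:34305773-34305812. The H2-DMb1 stretch lies on the plus strand at chr17:34153094-34153134. GNAAC and TGATTGG started 31, 30 and 31 bases apart in H2-Aa, H2-Eb1 and H2-DMb1. The pair, with starts 20 to 40 bases apart and read on both strands, was present in 187 of 32851 promoter windows, or 0.569%. TGATTGG alone was present in 7.82% of them, and the motifs do not overlap. The pair was not found in the 2 windows of H2-DMa or in the window of H2-DMb2, which says only that these letters are not there. H2-Aa and H2-Eb1 fell with carboplatin, as given next, while H2-DMb1, which carries the same pair, did not pass the test.

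The classical chains were about an order of magnitude lower in carboplatin nerves than in PBS nerves, and every carboplatin library lay below every PBS library. H2-Aa encodes the alpha chain of the I-A molecule, and its gene lies at chr17:34282744-34287823 on the minus strand of GRCm38. It had 6.50, 4.36 and 5.34 CPM in carboplatin 1 to 3 and 22.6, 24.5 and 86.3 CPM in selumetinib 1 to 3. The PBS libraries ran from 49.0 to 96.1 CPM, with a median of 63.1. The carboplatin values overlapped neither of the other groups, whereas selumetinib 1 and 2 lay below the PBS range and selumetinib 3 within it. The mean was 5.40 ± 1.07 CPM in carboplatin (SD, n = 3) and 66.3 ± 18.5 CPM in PBS (SD, n = 6), or 8.14% of the PBS level. The log2 fold change of carboplatin over PBS was -3.62 ± 0.49 with an adjusted p of 0.00453, by the quasi-likelihood test of edgeR with Benjamini-Hochberg adjustment over all genes tested. Here and below the error of a log2 fold change is its size divided by the square root of the test statistic.

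H2-Ab1 encodes the I-A beta chain and lies at chr17:34257689-34269419. It had 9.95, 5.26 and 7.41 CPM in carboplatin 1 to 3 and 22.5, 23.6 and 74.8 CPM in selumetinib 1 to 3. PBS libraries ran from 49.1 to 115 CPM, with a median of 57.7, and PBS 1 was the highest. Again the carboplatin libraries stood clear of both other groups. Carboplatin averaged 7.54 ± 2.35 CPM and PBS 67.8 ± 24.8 CPM, a log2 fold change of -3.17 ± 0.49 (edgeR adjusted p 0.00995).

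H2-Eb1 encodes the beta chain of the I-E molecule and lies at chr17:34305867-34316674. It was the most even of the members in carboplatin, at 6.56, 5.99 and 5.61 CPM in carboplatin 1 to 3. Selumetinib 1 to 3 had 21.7, 22.6 and 74.5 CPM, and the PBS libraries had 51.1 to 97.9 CPM with a median of 59.5. As for the other chains, the 3 carboplatin values were the 3 lowest of the 12. The log2 fold change of carboplatin over PBS was -3.45 ± 0.44 (edgeR adjusted p 0.00334), the smallest adjusted p among the members. The alpha chain that pairs with it, H2-Ea, had 0 counts in all 12 libraries, and was singled out after its values were seen. A count of 0 allows at most 0.122 CPM in the carboplatin library with the widest limit. Such limits, set at 3 counts, cover counting error only.

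**Figure D1:**
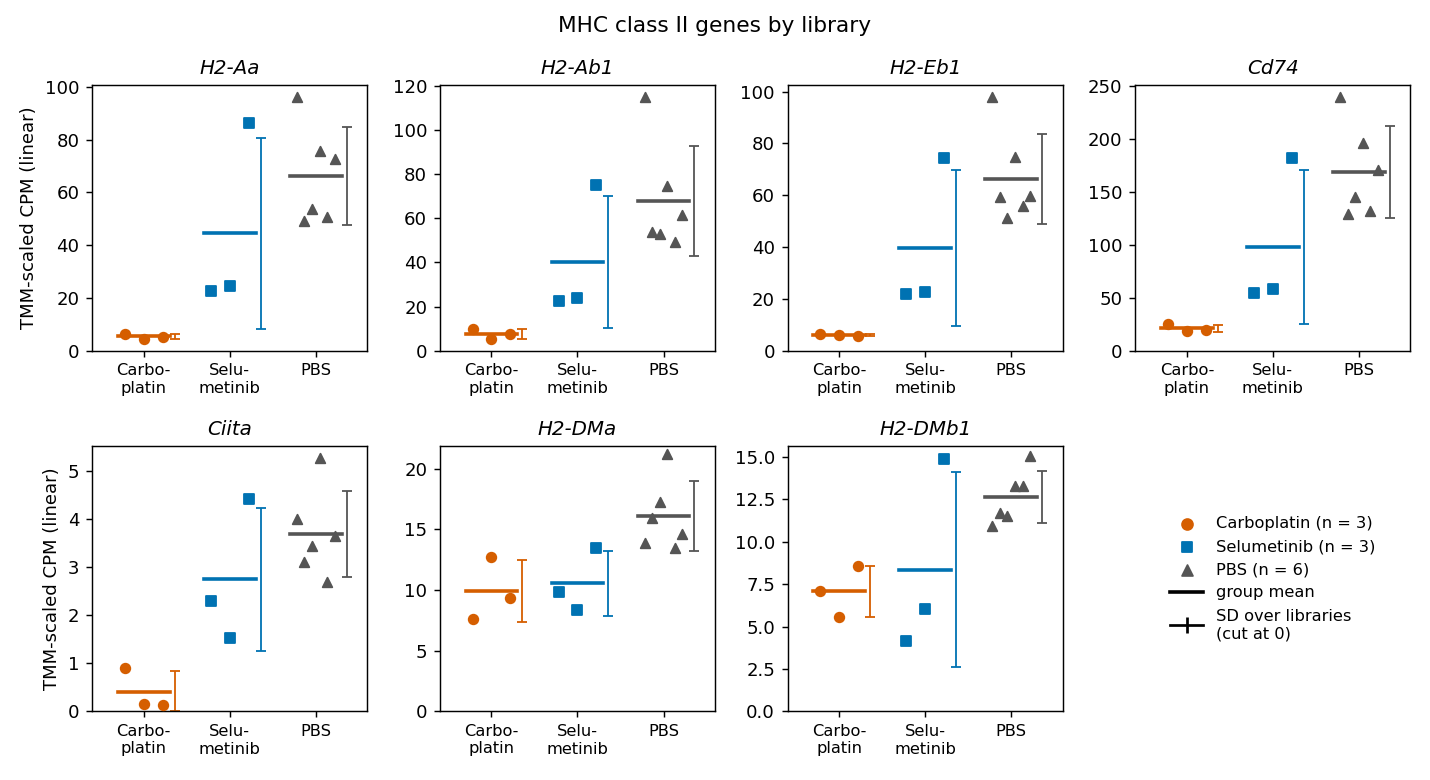
Level of each of the 7 class II genes in every library, in TMM-scaled CPM on linear axes that start at 0, for carboplatin (circles, n = 3), selumetinib (squares, n = 3) and PBS (triangles, n = 6). Horizontal lines are group means and the bars beside them the SD over libraries. All carboplatin points lie below all PBS points for each gene, while selumetinib 3 sits within the PBS range for each gene and selumetinib 1 and 2 sit below it.

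Cd74, at chr18:60803848-60812652, encodes the invariant chain and was the most abundant member, also per kilobase of exon. It stood at 24.9, 18.4 and 19.8 CPM in carboplatin 1 to 3, and at 54.1, 58.4 and 182 CPM in selumetinib 1 to 3. The PBS libraries held 129 to 240 CPM, with a median of 158. The highest carboplatin value was thus under the lowest of the other 9. The carboplatin mean was 12.4% of the PBS mean of 169 ± 43.1 CPM, and the log2 fold change was -3.01 ± 0.43 (edgeR adjusted p 0.00603). Per kilobase of exon, Cd74 averaged 12.5 CPM in carboplatin, 58.5 in selumetinib and 101 in PBS. On the same scale H2-Eb1 averaged 3.11, 20.4 and 34.2, H2-Ab1 2.94, 15.7 and 26.4, and H2-Aa 1.42, 11.7 and 17.5 CPM per kilobase in carboplatin, selumetinib and PBS. The order of these 4 genes by length-scaled mean was thus Cd74, H2-Eb1, H2-Ab1 and H2-Aa in each group. H2-Eb1 and H2-Ab1 were within one SD of each other in each group, but that SD ignores that both were read in the same libraries. Within libraries, H2-Eb1 was above H2-Ab1 in every PBS and selumetinib library, and the order varied in carboplatin. The lengths counted all annotated exons of a gene, from 1679 bases for Cd74 to 3798 for H2-Aa. Before this scaling the chains had near equal PBS means, at 66.3, 67.8 and 66.4 CPM for H2-Aa, H2-Ab1 and H2-Eb1. The order among the chains in PBS thus depends on the lengths used.

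Ciita, at chr16:10480059-10528418, was the scarcest member. It had 30, 4 and 4 counts in carboplatin 1 to 3, or 0.907, 0.163 and 0.134 CPM. Selumetinib 1 to 3 had 2.30, 1.53 and 4.40 CPM, and the PBS libraries 2.68 to 5.26 CPM with a median of 3.55. Carboplatin 1 was several times above carboplatin 2 and 3, but still under the lowest selumetinib library. The log2 fold change over PBS was -3.17 ± 0.65 (edgeR adjusted p 0.0338), the largest adjusted p of the 5 called, and its call was lost in 7 of the 12 fits that left out 1 library. Exons of Ciita overlap those of Dexi on the other strand, and whether counting used strand was not given in the sources used here, so reads in the overlap cannot be told apart. Dexi had 21.1 ± 0.517 CPM in carboplatin and 22.9 ± 12.1 CPM in PBS.

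The DM chaperone genes were lower in carboplatin by much less and did not pass the test. H2-DMa had 7.65, 12.7 and 9.35 CPM in carboplatin 1 to 3 and 9.80, 8.34 and 13.5 CPM in selumetinib 1 to 3. The PBS libraries had 13.4 to 21.2 CPM with a median of 15.3. Carboplatin lay below PBS in every library, at a log2 fold change of -0.70 ± 0.23 (edgeR adjusted p 0.150). H2-DMa, at chr17:34119541-34139101, shares exonic bases with Brd2 on the other strand. Brd2 averaged 253 ± 10.9 CPM in carboplatin, 181 ± 10.7 in selumetinib and 204 ± 22.4 in PBS, so that reads of this more abundant gene could enter the H2-DMa values.

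H2-DMb1, at chr17:34153072-34160230, had 7.07, 5.59 and 8.58 CPM in carboplatin 1 to 3, and 4.17, 6.04 and 14.9 CPM in selumetinib 1 to 3. Its PBS libraries ran from 10.9 to 15.0 CPM, with a median of 12.5. All carboplatin libraries were again below all PBS libraries, and selumetinib spanned both ranges. The log2 fold change of carboplatin over PBS was -0.83 ± 0.34 (edgeR adjusted p 0.259). The longest protein-coding transcripts of H2-DMb1 and its neighbour H2-DMb2 were 94.8% identical over 1211 aligned bases, so the split of reads between them is uncertain. H2-DMb2 had 1.45 CPM in carboplatin and 1.56 CPM in PBS on average.

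Set side by side per kilobase of exon, H2-DMb1 averaged 4.21 CPM in carboplatin, 4.98 in selumetinib and 7.51 in PBS, and H2-DMa 2.87, 3.06 and 4.66. Ciita averaged 0.0421, 0.288 and 0.387 CPM per kilobase in the same groups. In PBS and in selumetinib the order of mean levels was Cd74, H2-Eb1, H2-Ab1, H2-Aa, H2-DMb1, H2-DMa and Ciita. There H2-Aa was within one SD of H2-Ab1, but below it in each library of both groups. In carboplatin it was Cd74, H2-DMb1, H2-Eb1, H2-Ab1, H2-DMa, H2-Aa and Ciita, and there H2-Eb1, H2-Ab1 and H2-DMa did not differ beyond their SD.

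Over the list, 5 of the 7 members fell in carboplatin against PBS and 0 rose. Among all genes tested 383, or 2.09%, were called in that comparison, and 0.518% were called lower. At an unadjusted p under 0.05 all 7 were lower, against 8.43% of all genes tested. The median log2 fold change of the 7 was -3.17, while that of all genes tested was -0.11. For all 7 members every carboplatin library was below every PBS library, a pattern shown by 5.23% of all genes tested. The 5 calls were lost with PBS 1 to 3 as the only controls, where 7 genes in all were called and the 5 members had log2 fold changes of -3.62 to -3.04 with edgeR adjusted p of 0.104 to 0.274. Without carboplatin 3, 73 genes in all were called, and the member calls were limited to H2-Aa and H2-Eb1. H2-Aa and H2-Eb1 kept their calls whichever of the 12 libraries was left out.

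**Figure D2:**
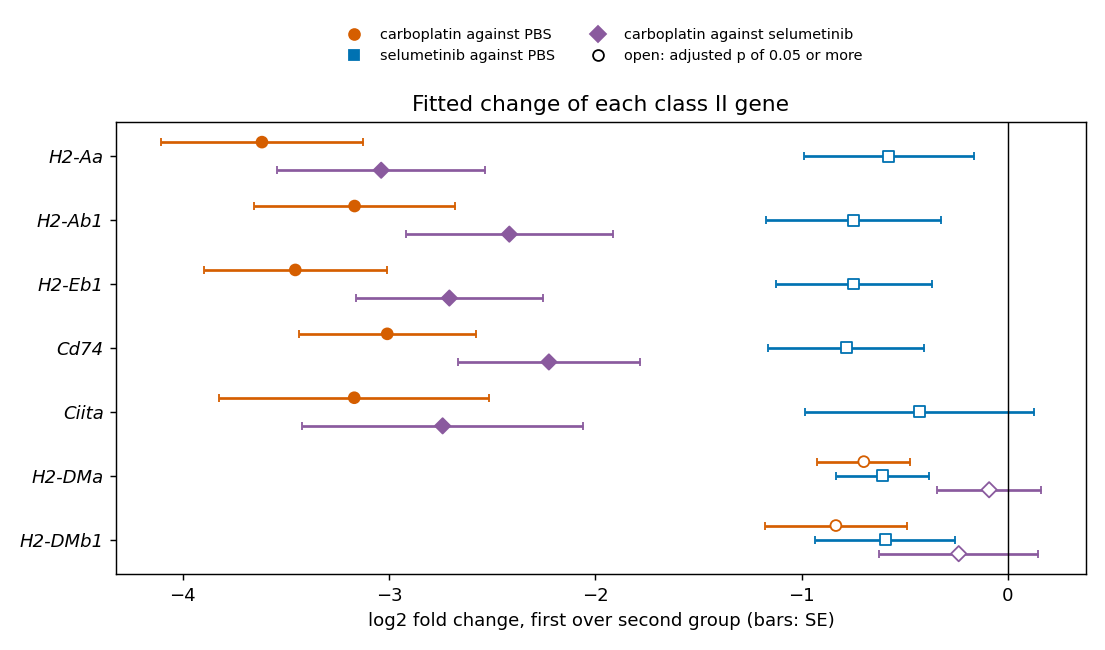
Fitted log2 fold change of each class II gene for carboplatin over PBS (circles), selumetinib over PBS (squares) and carboplatin over selumetinib (diamonds), with bars of 1 SE. Filled symbols mark an edgeR adjusted p under 0.05. The chains, Cd74 and Ciita lie between -3.62 and -2.22 in both comparisons of carboplatin, and H2-DMa and H2-DMb1 between -0.83 and -0.09.

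Selumetinib against PBS gave no call. The means were 44.4 ± 36.3 CPM in selumetinib and 66.3 ± 18.5 CPM in PBS for H2-Aa, 40.3 ± 29.9 and 67.8 ± 24.8 CPM for H2-Ab1, and 39.6 ± 30.2 and 66.4 ± 17.3 CPM for H2-Eb1. Their log2 fold changes were -0.58 ± 0.41, -0.75 ± 0.42 and -0.75 ± 0.38, with edgeR adjusted p of 0.387, 0.290 and 0.244. Those of Cd74, Ciita, H2-DMa and H2-DMb1 were -0.78 ± 0.38, -0.43 ± 0.55, -0.61 ± 0.23 and -0.60 ± 0.34. All 7 values were negative, with a median of -0.61, and the median of all genes tested was -0.09. Of the 7 members 0 were called by edgeR and 0 by DESeq2, and 1, H2-DMa, was lower at an unadjusted p under 0.05. Of all 18344 genes tested 0% were called by edgeR in this comparison, while 1835 were lower and 2575 higher at an unadjusted p under 0.05, and DESeq2 called 2279. For 0 of the 7 members was every selumetinib library below every PBS library, against 2.70% of all genes tested. With PBS 4 to 6 as the only controls the 7 values ran from -0.76 to -0.50, again with 0 members called.

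The selumetinib libraries did not form one level. In selumetinib 1 and 2 the chains were at 21.7 to 24.5 CPM, below every PBS library, and in selumetinib 3 they were at 74.5 to 86.3 CPM, within the PBS range. Without selumetinib 3, edgeR called 6 of the 7 members lower than PBS, all but Ciita, with log2 fold changes of -1.55 to -0.79, and 4089 genes in all. Without selumetinib 1 and 2, a choice made after these values were seen, 1 selumetinib library remained and was taken to vary like the other groups. The log2 fold change of each member except H2-DMa was above 0, from 0.11 to 0.39, with edgeR adjusted p of 1. Selumetinib 1 and 2 were also the libraries with the lowest oligodendrocyte sums, and the part of that difference in the class II values was not tested.

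In carboplatin against selumetinib the libraries of the drugs were set against each other, and here a drug effect and the division by muscle and photoreceptor markers cannot be told apart. H2-Aa was lower in carboplatin by a log2 fold change of -3.04 ± 0.50 (edgeR adjusted p 0.00983), H2-Eb1 by -2.71 ± 0.45 and H2-Ab1 by -2.42 ± 0.50 (edgeR adjusted p 0.0101 and 0.0178). Cd74 was lower by -2.22 ± 0.44 and Ciita by -2.74 ± 0.68 (edgeR adjusted p 0.0155 and 0.0286). For these 5 genes every carboplatin library was below every selumetinib library, a pattern shown by 20.8% of all genes tested. H2-DMa and H2-DMb1 gave -0.09 ± 0.25 and -0.24 ± 0.38 (edgeR adjusted p 0.841 and 0.717), and their groups overlapped. So 5 of 7 members fell, while 8.35% of all genes tested were called lower. The comparison with PBS and this one share the carboplatin libraries. Without carboplatin 3, 0 of the 7 passed, and without carboplatin 1 or 2 there were 3 and 2 calls. Over all genes these fits called 214, 292 and 474, against 2568 in the reported fit. Without selumetinib 3 the 5 genes stayed called, among 4788 genes in all, at smaller sizes. Their log2 fold changes were then -2.14 for H2-Aa, -1.89 for H2-Eb1, -1.63 for H2-Ab1, -1.44 for Cd74 and -2.24 for Ciita. With PBS 1 to 3 as the PBS libraries of the shared fit 0 of the 7 passed as well, and 97 genes in all were called.

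The proportions between the members were also set side by side, taken within each library. Cd74 had 3.82, 4.21 and 3.71 CPM per CPM of H2-Aa in carboplatin 1 to 3, and 2.40, 2.39 and 2.11 in selumetinib 1 to 3. In the PBS libraries the ratio stayed between 2.35 and 2.72. H2-DMa per H2-Aa was 1.18 to 2.91 in carboplatin, 0.156 to 0.434 in selumetinib and 0.144 to 0.326 in PBS. H2-DMb1 per H2-Aa was 1.09 to 1.61 in carboplatin, 0.172 to 0.247 in selumetinib and 0.114 to 0.261 in PBS. In carboplatin the DM genes thus stood above H2-Aa in CPM, and in the other groups below it. For Cd74, H2-Ab1, H2-DMa and H2-DMb1 the carboplatin ratios to H2-Aa lay above all PBS ratios, each with p = 0.0238 by a two-sided exact permutation test, the smallest p that 3 against 6 libraries allow. Adjusted over the 18 ratio comparisons computed, this was 0.107, and no ratio passed. The ratios were chosen after the members' values were seen, and an exact permutation test of 3 against 3 libraries, as with selumetinib, could not go below p = 0.1. Ciita per H2-Aa was 0.025 to 0.140 in carboplatin and 0.0417 to 0.0693 in PBS, with overlapping groups.

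The members on chromosome 17 lie among genes of the class I route, which allows a look at neighbours. Between H2-DMa and H2-Eb1, a stretch picked after the values were seen, 13 genes were tested, of which 5 are members. None of the other 8 was called in any of the 3 comparisons. Their log2 fold changes of carboplatin over PBS ran from -1.05, for the immunoproteasome subunit gene Psmb9, to -0.11, for H2-DMb2, with a median of -0.53. Of the tested genes in this order, H2-Ob is the last before the 3 chains. H2-Ob, which encodes the beta chain of DO, an inhibitor of DM found mainly in B cells, had 1.52 CPM in carboplatin and 3.13 CPM in PBS (log2 -1.04 ± 0.60, edgeR adjusted p 0.418).

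**Figure D3:**
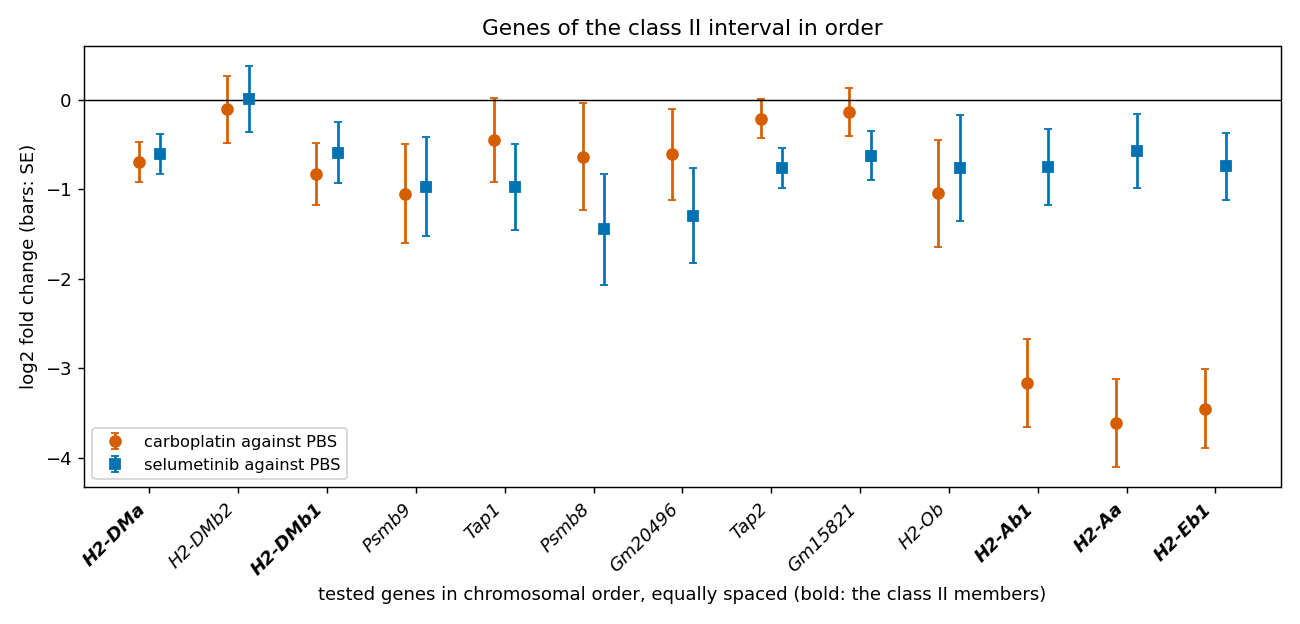
Log2 fold change over PBS of the 13 tested genes between H2-DMa and H2-Eb1, in chromosomal order and equally spaced, for carboplatin (circles) and selumetinib (squares), with bars of 1 SE; the 5 members are in bold. H2-Ab1, H2-Aa and H2-Eb1 lie between -3.62 and -3.17 for carboplatin, and the 10 other genes between -1.05 and -0.11.

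The rest of the presentation route was covered by lists. Of 15 other class II chains and accessory genes, 13 were tested and 0 were called in carboplatin against PBS, with a median log2 fold change of 0.05. The smallest p values there belonged to H2-Ob and to Ctsl, a lysosomal protease that can cut the invariant chain, at 321 CPM in carboplatin and 247 CPM in PBS (edgeR adjusted p 0.420). None of the 13 transcription factors and cofactors of class II genes was called, with a median of 0.04. Rfxap, a subunit of the RFX complex that binds the X box, had 23.2 CPM in carboplatin and 17.5 CPM in PBS (edgeR adjusted p 0.265). Nfya, a subunit of the CCAAT-binding factor NF-Y, had 24.3 CPM in carboplatin and 31.2 CPM in PBS (edgeR adjusted p 0.337). Of the 17 interferon gamma signal genes 16 were tested and 0 called, with a median of -0.58. The GTPase gene Iigp1 had 7.79 and 15.1 CPM in carboplatin and PBS (edgeR adjusted p 0.240).

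Class I presentation genes gave 0 calls among 15 in carboplatin against PBS, although all 15 fold changes were negative, with a median of -0.46. Calr and Pdia3, which encode chaperones of the peptide-loading complex, had the smallest p values, at -0.79 ± 0.23 and -0.53 ± 0.22 (edgeR adjusted p 0.109 and 0.251). At an unadjusted p under 0.05, 0 accessory, 0 transcription factor, 2 interferon and 3 class I genes were lower. In carboplatin against selumetinib 3 genes of these 4 lists were called, all higher. They were 1 of 13 accessory, 0 of 13 transcription factor, 2 of 16 interferon and 0 of 15 class I genes tested. Of all genes tested 5.65% were called higher, so a count of this size does not set these lists apart. Ctsl was higher by 0.99 ± 0.26 (edgeR adjusted p 0.0329), Ifngr1, a receptor chain for interferon gamma, by 1.03 ± 0.24 (0.0233) and the repressor gene Irf2 by 0.61 ± 0.18 (0.0446). In selumetinib against PBS the medians of these 4 lists were -0.46, -0.22, -0.62 and -0.78, with 0 calls in each.

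Markers of cells that carry class II were followed beside the members. The 12 border macrophage markers, for macrophages of the meninges and vessel walls, summed to 175 to 320 CPM in carboplatin, 117 to 330 CPM in selumetinib and 264 to 770 CPM in PBS. One of them was called lower in carboplatin against PBS, Clec12a (log2 -2.53 ± 0.54, edgeR adjusted p 0.0388), and the list median was -0.85. The 14 microglia markers summed to 1214 to 1641 CPM in carboplatin, 675 to 1394 CPM in selumetinib and 758 to 1699 CPM in PBS. Fcrls was the 1 microglia gene called lower (log2 -1.91 ± 0.41, edgeR adjusted p 0.0388), with a list median of -0.12. The sums of both lists overlapped between carboplatin and PBS, unlike the class II chains. A sum follows the abundant markers, and Maf alone made up 28.5% of the border macrophage sum. Of the 12 border macrophage markers, 11 had negative fold changes in carboplatin against PBS, so overlapping sums do not show equal macrophage content. Fewer class II cells and less class II RNA per cell cannot be told apart in bulk RNA.

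Set against these sums, the 3 chains stood lowest in carboplatin as well. H2-Aa, H2-Ab1 and H2-Eb1 together had 5.82 to 8.91 CPM per 100 CPM of border macrophage markers in carboplatin, against 45.5 to 71.5 in selumetinib and 40.1 to 61.4 in PBS. Selumetinib and PBS overlapped on this scale, and selumetinib 1 and 2 lay within the PBS range. Per 100 CPM of microglia markers the chains had 0.952 to 1.90 CPM in carboplatin, 8.16 to 16.9 in selumetinib and 9.27 to 40.8 in PBS, with the highest value in PBS 1. Selumetinib 1 was below every PBS library on this scale. Per 100 CPM of dendritic cell markers the chains had 24.0 to 59.5 CPM in carboplatin, 78.3, 87.2 and 357 CPM in selumetinib 1 to 3, and 216 to 575 CPM in PBS, so that selumetinib 1 and 2 stood below PBS there. That sum was weighted to 1 gene, with 40.3% of it from Siglech, so this scale does not measure dendritic cell content. Of its 10 tested markers, 9 had negative fold changes in carboplatin against PBS. What part a loss of dendritic cells had in this scale was not tested. Per 100 CPM of pan-leukocyte markers the chains had 4.06 to 9.17 CPM in carboplatin, 32.3 to 73.1 CPM in selumetinib and 36.2 to 111 CPM in PBS. Carboplatin did not overlap the other groups on any of these 4 scales.

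**Figure D4:**
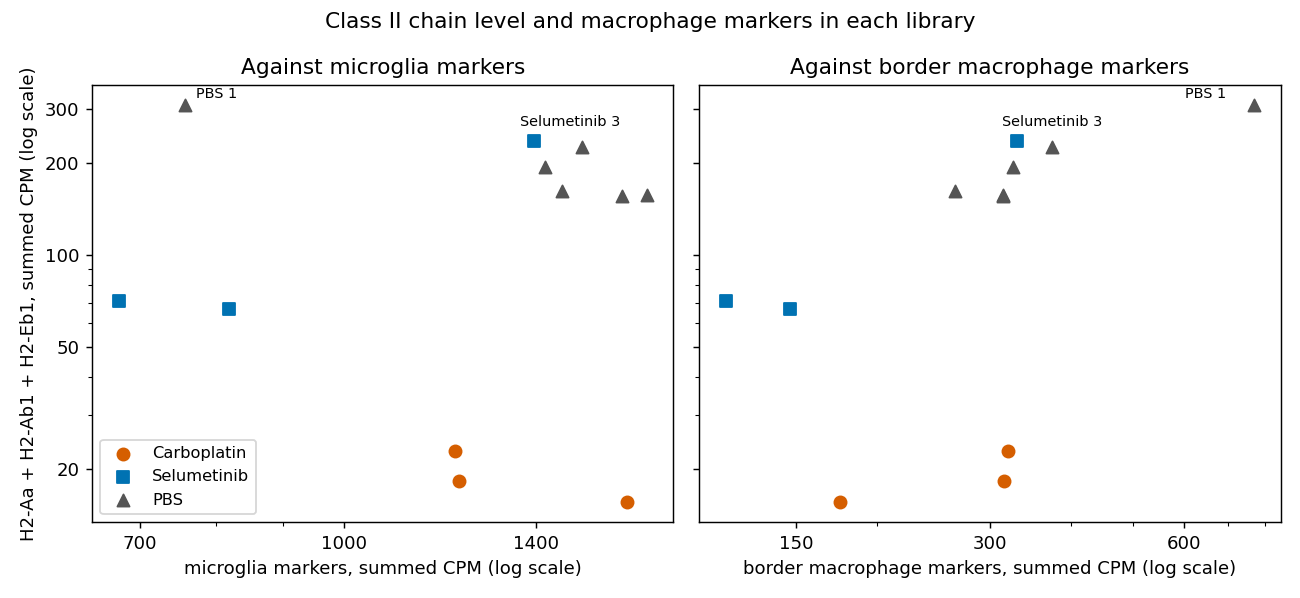
Summed CPM of H2-Aa, H2-Ab1 and H2-Eb1 in each library against the summed CPM of 14 microglia markers (left) and of 12 border macrophage markers (right), on log axes, for carboplatin (circles), selumetinib (squares) and PBS (triangles). The 3 carboplatin libraries lie lowest, from 15.6 CPM of chains, at marker sums that overlap those of the other groups, and the other 9 libraries lie at 66.8 to 309 CPM.

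A few markers of immune cells that come from blood were called lower along with the members. Ccr2, the chemokine receptor of monocytes that also marks dendritic cells derived from them, had 0.612 to 1.57 CPM in carboplatin, 3.68 to 15.0 CPM in selumetinib and 5.40 to 17.6 CPM in PBS. Its groups did not overlap between carboplatin and PBS, with a log2 fold change of -3.40 ± 0.65 (edgeR adjusted p 0.0238). It was the 1 of 9 tested monocyte markers that was called. Of 10 tested dendritic cell markers 0 were called against PBS, with a median of -1.10. Cd209a, a marker of monocyte-derived dendritic cells, was at 0.0383 CPM in carboplatin and 1.07 CPM in PBS on average (edgeR adjusted p 0.0632). Batf3 went the other way, at 11.1 CPM in carboplatin and 4.68 CPM in PBS (log2 1.25 ± 0.37, edgeR adjusted p 0.118). Every carboplatin library was above every PBS library for Batf3. The summed dendritic cell markers were at 38.6 to 65.0 CPM in carboplatin, 66.0 to 85.3 CPM in selumetinib and 53.7 to 73.0 CPM in PBS, with 1 or 2 of the 12 at 0 counts in carboplatin 1, carboplatin 3, selumetinib 1, PBS 3 and PBS 5.

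B cell markers gave low values in carboplatin. The summed level of the 10 markers was 18.4 to 23.2 CPM in carboplatin, 17.1 to 32.8 CPM in selumetinib and 24.5 to 60.7 CPM in PBS, and all 10 fold changes of carboplatin over PBS were negative, with a median of -2.55. Ms4a1 and Pax5, markers of B cells, had 0 counts in all 3 carboplatin libraries, which allows at most 0.122 CPM in any of them. In PBS they ran from 0 to 2.55 and from 0.0419 to 0.652 CPM, so that some PBS libraries were also at or under that limit. Set against the PBS means of 1.14 and 0.352 CPM, they were at least 9.30-fold and 2.88-fold lower in carboplatin. Neither was called (edgeR adjusted p 0.0981 and 0.0696). The PBS libraries were themselves uneven, with B cell sums of 24.5 to 29.0 CPM in PBS 1 to 3 and 47.9 to 60.7 CPM in PBS 4 to 6. Of the 10 T cell markers 1 was called, the kinase gene Lck (log2 -1.95 ± 0.40, edgeR adjusted p 0.0339), with a median of -1.68 over the list.

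Red blood cell markers were lower too. The 7 genes summed to 25.2 to 98.5 CPM in carboplatin, 687 to 1522 CPM in selumetinib and 252 to 7922 CPM in PBS, and 5 of the 7 were called lower in carboplatin against PBS, with a list median of -5.90. The pan-leukocyte markers gave 0 calls of 10 with a median of -0.24, and their sums of 251 to 385 CPM in carboplatin and 278 to 435 CPM in PBS overlapped. Itgam had 40.3 CPM in carboplatin and 70.3 CPM in PBS, and Ptprc 11.6 and 24.6 CPM (edgeR adjusted p 0.107 and 0.187). For both genes every carboplatin library was below every PBS library, a pattern shown by 5.23% of all genes tested. Overlapping sums thus do not show equal leukocyte content. What part the monocyte, dendritic, B and red blood cell markers had in the class II difference was not tested.

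The genes whose pattern over the 12 libraries was most like the members were looked up among 12903 genes, by Pearson's r of log2 CPM with the mean of the 7. As 3 libraries stood apart on this measure, r describes a ranking and carries no p. The highest were Tgtp2, an interferon-inducible GTPase gene (r = 0.945), Ccr2 (0.940), Rhobtb1 (0.930), the serpin gene Serpinb1a (0.924) and the histone gene Hist1h2be (0.920). They were followed by the kinase gene Fer (0.920), the collagen gene Col3a1 (0.919) and the adaptor gene Sh3kbp1 (0.914). Serpinb1a had 27.9 to 38.5 CPM in carboplatin, 34.4 to 115 CPM in selumetinib and 80.4 to 151 CPM in PBS. Of the 8 genes, Ccr2, Serpinb1a, Hist1h2be and Sh3kbp1 were called lower in carboplatin against PBS. Their log2 fold changes were -3.40, -1.86, -1.66 and -1.24 (edgeR adjusted p 0.0238, 0.0265, 0.0117 and 0.0233). The ranking used the same 12 libraries, so lower values in carboplatin follow from the choice of these genes and are not a separate result. Tgtp2 and Hist1h2be belong to families of near-identical genes, so their counts are uncertain.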

How the data were processed

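The deposited table held raw counts, whole numbers of reads per gene that the authors had not normalized, for 12 libraries. Tools named in the submitters' processing notes are HTSeq, STAR, Trimmomatic, FastQC and DESeq2, and the build is mm10. Versions, annotation and strand setting are not given in the sources used here. Poly(A) RNA was isolated with poly-T beads, per the labels, whose treatment field also gave the groups.

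Genes were kept with filterByExpr (minimum count 10, minimum total 15). After TMM scaling, a robust quasi-likelihood fit of the 3 groups over all 12 libraries was made in edgeR 4.0.16 (R 4.3.3). Calls required a Benjamini-Hochberg adjusted p under 0.05 over 18344 genes. The test was checked on simulated data. Alternatives were DESeq2 1.42.0, RLE factors, no filter, 1 CPM in 3 libraries, a fit of the compared groups alone, each set of 3 PBS libraries (PBS 1 to 3, PBS 4 to 6), the replicate number as a term and libraries left out. Coordinates and exon lengths came from GENCODE M21 (GRCm38), and promoter sequences from RefSeq.

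The members and the 18 other gene lists were chosen with earlier results of these data known. Named from a list were the genes called, at most 5 by p, or otherwise the 2 with the smallest p, besides the 7 members and the 8 genes most like them. Not every gene the rule allows is named, and some are not reported here. Overlapping and neighbouring genes, H2-Ea, Ms4a1, Pax5 and Siglech fall outside the rule and were named after their values were seen.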

Additional observations from a re-analysis of the deposited data

How the results depend on the processing

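Each member lay lower in carboplatin than in PBS under all 22 alternatives, and H2-Aa ranged from -3.77 to -3.47, H2-Ab1 from -3.42 to -2.95, H2-Eb1 from -3.53 to -3.33, Cd74 from -3.15 to -2.90 and Ciita from -4.60 to -2.75 on the log2 scale. The calls were less stable than the sizes, and the cause was not tested. The members called were 5 in the reported fit of carboplatin against PBS, 0 with PBS 1 to 3 as the controls, 6 with DESeq2, 7 without PBS 1, selumetinib 1 and selumetinib 2, and 2 to 5 with 1 library left out. They were 5 in carboplatin against selumetinib, 0 with PBS 1 to 3, 3 without selumetinib 1 and 2 (added after the data were seen, with 1 selumetinib library left and assumed to vary like the other groups) and 0 to 5 with 1 library left out, and 0 in selumetinib against PBS, 0 to 6 with 1 library left out. The replicate numbers were not taken as pairs, since not every same-numbered pair deviated together at a correlation over 0.1 (correlations of 0.222, 0 and 0.296 for carboplatin with PBS, -0.142, 0.290 and 0.274 for selumetinib with PBS, 0.031, 0.010 and 0.097 for carboplatin with selumetinib), although carboplatin 1 and carboplatin 3 each correlated best with the PBS library of their number. The replicate block, with 0 members called in each comparison and member edgeR adjusted p of 0.183 to 0.641 in carboplatin against PBS, is given here only. Replicate numbers 4 to 6 occur in PBS alone, so PBS 4 to 6 add nothing to its fold changes. Both drugs were in effect set against PBS 1 to 3 in the block. Of all genes, the block called 5, 2 and 50 in carboplatin against PBS, selumetinib against PBS and carboplatin against selumetinib, where the reported fit called 383, 0 and 2568. In the same order DESeq2 called 1473, 2279 and 4604, PBS 1 to 3 gave 7, 3 and 97, PBS 4 to 6 gave 2202, 0 and 5641, and 1 library left out gave 73 to 1941, 0 to 4089 and 134 to 5974. Without PBS 1, selumetinib 1 and selumetinib 2 there were 3073, 0 and 516 calls, and 5 in carboplatin against selumetinib without selumetinib 1 and 2. Selumetinib against PBS turned above 0 without selumetinib 1 and 2 for H2-Aa (0.386), H2-Ab1 (0.151), H2-Eb1 (0.171), Cd74 (0.113), Ciita (0.258) and H2-DMb1 (0.237), and without PBS 1 as well at 0.508, 0.349, 0.300, 0.226, 0.272 and 0.191 in the same genes. Carboplatin against selumetinib turned for H2-DMa without carboplatin 1 (0.067) or selumetinib 3 (0.107), within a range of -0.297 to 0.107 with 1 library left out, and for H2-DMb1 without selumetinib 3 (0.450), within -0.587 to 0.450. Depth limits Ciita most, with 4 counts in carboplatin 2 and in carboplatin 3.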

Other observations

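Of the 10 tested dendritic cell markers, 9 had negative log2 fold changes in carboplatin against selumetinib, with a median of -0.79, and 2 were called lower and 1 higher. Cd83, made by mature dendritic cells and by other cells, had 7.44 CPM in carboplatin and 37.8 CPM in selumetinib on average (log2 -2.34 ± 0.36, edgeR adjusted p 0.00710). Cd209a had 0.0383 CPM in carboplatin and 0.681 CPM in selumetinib (edgeR adjusted p 0.0447). Batf3, the 1 marker above 0, had 11.1 CPM in carboplatin and 1.39 CPM in selumetinib (log2 3.00 ± 0.48, edgeR adjusted p 0.00908). Against PBS, with 12.8 CPM of Cd83 and 4.68 CPM of Batf3, neither gene passed in selumetinib (edgeR adjusted p 0.0884 for each).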
